A study of Homo sapiens with 10 samples.

Results

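The MYC and MAX network is a family of basic helix-loop-helix leucine zipper transcription factors. Here it is represented by 10 genes chosen by name, MYC, MYCN, MYCL, MAX, MXD1, MXD3, MXD4, MXI1, MNT and MLX, out of 50868 genes in the deposited table. All 10 were found in it. RNA was sequenced from Kasumi-1, a human myeloid leukemia cell line that carries the 8;21 translocation fusing RUNX1 to RUNX1T1. The vector group received the MIGR1 retrovirus alone. The HEB, E2A and E2-2 groups received it with an HA-tagged E protein, made from TCF12, TCF3 and TCF4 respectively. RNA was taken from sorted GFP-positive cells 4 days after infection in all 4 groups. Each group is 1 library from a culture of this single line, and the E proteins were overexpressed from a viral vector on top of the line's own TCF3 and TCF12.

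MYC, MYCN and MYCL code for activators that bind DNA only as dimers with MAX, mainly at the sequence CACGTG. The proteins of MXD1, MXI1, MXD3, MXD4 and MNT also pair with MAX, at the same sites, and bring in the SIN3 and histone deacetylase corepressor, so they oppose MYC. MLX is a MAX-like partner for MondoA (MLXIP) and ChREBP (MLXIPL), and it can also pair with MXD1, MXD4 and MNT. In blood cells MYC is known for driving growth of progenitors, and its decline accompanies differentiation. E proteins bind related sites, CANNTG, through their own basic helix-loop-helix domain.

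Levels are given as CPM, read counts scaled to a common library size after a correction for library composition (TMM). The libraries held 14816708 to 17673090 counted reads. Intervals in parentheses are 95% exact counting intervals, and they leave out differences between cultures, so no value has a replicate check and no p-value is given. Calls of 2-fold required a fold of 2 or more with an interval that left out 1, from 30 or more reads in the pair of libraries. A second rule uses 1.5-fold in the same way. Levels of different genes are not set side by side, since the length used for the deposited FPKM values exceeded the gene's own span for 3 of the 10 genes (8963 against 6001 bases for MYC). In RNA pooled from many sorted cells, fewer cells that use a gene and less RNA of it in each cell cannot be told apart.

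Each transduced gene was highest in its own library. TCF4 had 12484 reads in E2-2 and 4 in vector, TCF3 was 5.203-fold above vector in E2A, and TCF12 was 5.08-fold above it in HEB. The markers fixed for the cell line were all present, 9 of 9 with 30 reads or more, MPO the most read, at a summed level of 13440 to 20800 CPM. Of 8 erythroid and megakaryocytic markers 6 stayed under 30 reads in every library, HBB and HBA1 at 0. The same held for 4 of 5 T cell markers and for 7 of 8 fibroblast, epithelial or packaging cell markers, EPCAM being the exception at 622 to 871 reads. The T cell marker above that number was CD3D, with 34 reads in vector, 15 in HEB, 10 in E2A and 2 in E2-2. The myeloid marker CD33 had 441 reads in vector and 1751 in E2-2. Most markers of the cell line went the other way. In E2-2 against vector 7 of 9 had a fold below 1, as did 53.1% of all genes. The markers had a median log2 fold of -0.40 beside -0.03 for all genes. Their sum was 17640 CPM in vector and 13440 CPM in E2-2. Among B cell markers MS4A1 had at most 1 read in any library, while CD79A went from 30 reads in vector to 35 in HEB, 75 in E2A and 141 in E2-2, and CD79B had 136 to 211. The sum over 13 mitochondrially encoded genes was 54480 CPM in vector and 45210 CPM in E2-2. The part of these differences in the results that follow was not tested.

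MYC was lower and MXD3 was higher in E2-2 than in vector, MXD3 was higher in every E protein library, and MXD4 was lower in every E protein library. MAX, the shared partner, differed by at most 1.08-fold between any 2 libraries. Of 9 members with enough reads in the comparison of E2-2 with vector, 1 was 2-fold higher and 1 was 2-fold lower. Of all 13884 genes tested, 12.0% were called, 8.45% higher and 3.55% lower. With the 1.5-fold rule 3 were higher (MYCN, MXD1 and MXD3) and 2 lower (MYC and MXD4), where 23.0% of all genes were called, 13.5% higher and 9.43% lower. In E2A against vector 1 of 10 members was called at 2-fold, MXD3, beside 6.47% of 13901 genes (4.89% higher, 1.58% lower). At 1.5-fold MYCN was added on the higher side and MXD4 on the lower, beside 13.4% of all genes (8.41% higher, 5.01% lower). In HEB against vector MXD3 was again the 1 member of 10 called at 2-fold, beside 3.78% of 13695 genes (2.55% higher, 1.23% lower). MXD4 was added at 1.5-fold, beside 8.53% (4.8% higher, 3.73% lower). The median log2 fold over the members measured was 0.00 in E2-2, -0.08 in E2A and -0.07 in HEB, beside -0.03, -0.01 and 0.01 over all genes tested. The 3 comparisons share the vector library.

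**Figure D1:**
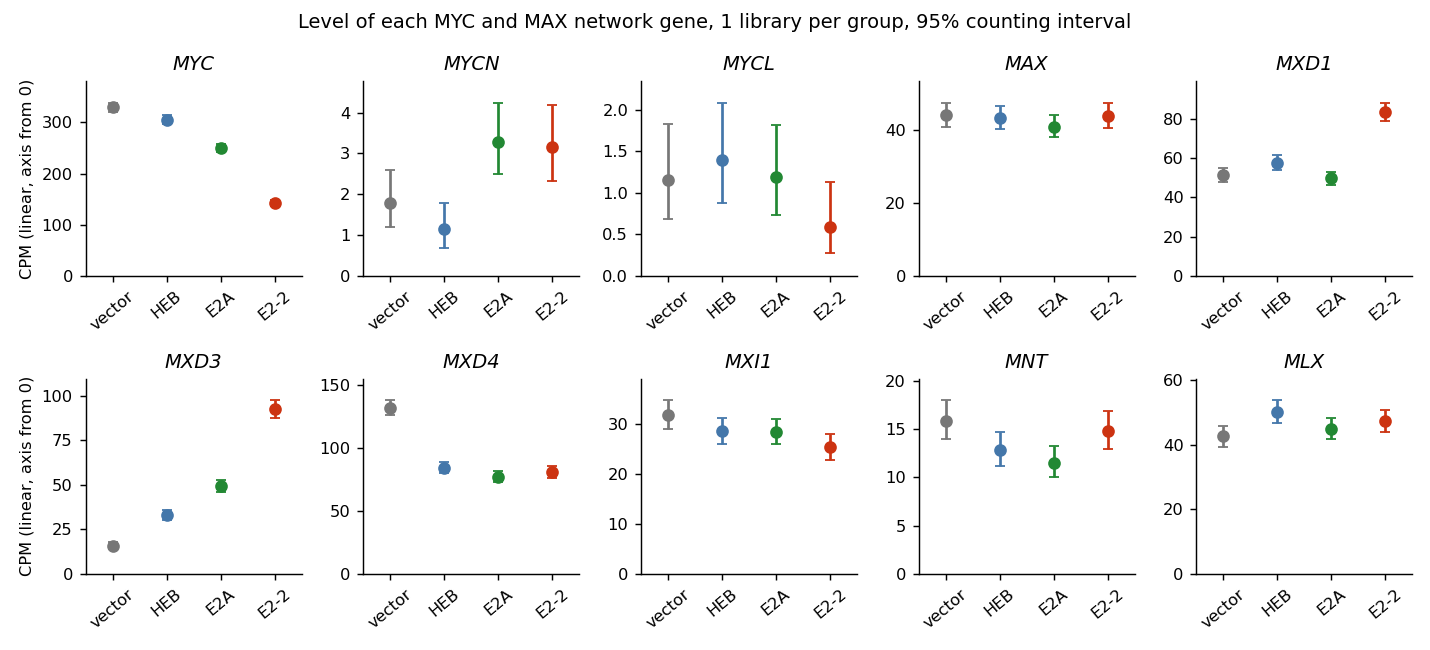
CPM of each of the 10 genes in the 4 libraries, on a linear axis from 0, 1 point per library with its 95% counting interval. MYC steps down from 329.5 CPM in vector to 141.7 in E2-2, MXD3 steps up from 15.6 to 92.6, and MXD4 drops from 131.9 in vector to between 77.1 and 84.1 in the other libraries.

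The MYC genes, which code for the activators, came first. MYC (ENSG00000136997, GRCh38 chromosome 8, 127735434 to 127741434) had 5140 reads in vector, 5061 in HEB, 4425 in E2A and 2149 in E2-2, which is 329.5, 305.8, 250.4 and 141.7 CPM. The level was lowest in E2-2 and no 2 of the 4 counting intervals overlapped. Against vector MYC was lower by a factor of 1.08 (1.04 to 1.12) with HEB, 1.32 (1.26 to 1.37) with E2A and 2.33 (2.21 to 2.45) with E2-2. Of all genes tested, 2.09% had a fold as low in E2-2, 12.4% in E2A and 30.6% in HEB. The step from HEB to E2A was 1.22-fold (1.17 to 1.27) and the step from E2A to E2-2 was 1.77-fold (1.68 to 1.86).

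MYCN and MYCL, the paralogs known from neural and lung tumors, were read far less deeply. MYCN (chromosome 2, 15940564 to 15947007) had 28 reads in vector, 19 in HEB, 58 in E2A and 48 in E2-2. E2A and E2-2 were high and HEB low, at 3.28, 3.17 and 1.15 CPM, and vector lay between at 1.80 CPM. MYCN exceeded vector by a factor of 1.83 (1.15 to 2.98) with E2A and 1.76 (1.08 to 2.92) with E2-2, while HEB was 1.56-fold lower with an interval from 0.843 to 2.96 that holds 1. MYCN thus stood on the opposite side of vector from MYC in E2A and E2-2, on fewer than 60 reads in each library. MYCL (chromosome 1, 39895426 to 39902256) had 18, 23, 21 and 9 reads in vector, HEB, E2A and E2-2. Its intervals overlapped between all libraries, and E2-2 with vector fell short of 30 reads. The antisense transcripts MYCNOS, MYCNUT and MYCL-AS1 had at most 1 read in any library.

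MAX (chromosome 14, 65006174 to 65102695), the dimer partner of both activators and repressors, had 686 reads in vector, 717 in HEB, 722 in E2A and 665 in E2-2. The levels of 43.98, 43.3, 40.9 and 43.9 CPM lay within each other's counting error. The widest gap, between vector and E2A, was 1.08-fold (0.968 to 1.197). For E2-2 against vector the interval of the MAX fold ran from 0.895 to 1.11. MAX overlaps FNTB in the table, which had 40 to 54 reads.

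The MXD genes, whose proteins repress through SIN3, did not share a direction. MXD3 (ENSG00000213347, chromosome 5, 177301461 to 177312757), known from cycling cells in S phase, had 244 reads in vector, 545 in HEB, 874 in E2A and 1404 in E2-2. The 4 levels of 15.6, 32.9, 49.5 and 92.6 CPM were set apart from each other, vector lowest and E2-2 highest. Against vector MXD3 was higher by a factor of 2.11 (1.81 to 2.46) with HEB, 3.16 (2.74 to 3.66) with E2A and 5.92 (5.16 to 6.81) with E2-2. A fold as high was found for 2.32% of genes tested in HEB, 2.5% in E2A and 2.71% in E2-2. In other words MXD3 held nearly the same rank among all genes in the 3 comparisons while the fold itself grew. The E2A library exceeded HEB 1.502-fold (1.35 to 1.68) and E2-2 exceeded E2A 1.87-fold (1.72 to 2.04). In the table MXD3 overlaps PRELID1, which had 331, 327, 340 and 303 reads in vector, HEB, E2A and E2-2, and RAB24, which had 3 to 8. PRELID1 lacked the graded reads of MXD3, and RAB24 had too few reads to judge. Reads from the shared stretches may be lost or counted for either gene, so the part of the overlap was not tested.

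MXD4 (ENSG00000123933, chromosome 4, 2247432 to 2262294) is best known from differentiating cells. It had 2058 reads in vector against 1391 in HEB, 1362 in E2A and 1225 in E2-2. The vector library stood alone at 131.9 CPM, and the E protein libraries lay together at 84.1, 77.1 and 80.8 CPM. MXD4 was lower by a factor of 1.57 (1.47 to 1.68) with HEB, 1.71 (1.60 to 1.83) with E2A and 1.63 (1.52 to 1.755) with E2-2, each past the 1.5-fold rule and below 2-fold. Folds as low were found for 4.21%, 3.58% and 7.66% of all genes. Between E2-2 and E2A the MXD4 fold was 1.048 (0.969 to 1.13) and between E2-2 and HEB 0.961 (0.889 to 1.04), while E2A was 1.09-fold (1.01 to 1.18) below HEB. MXD4 thus differed little among the 3 E protein libraries, where MXD3 and MYC were graded.

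MXD1 (ENSG00000059728, chromosome 2, 69897688 to 69942945), the family's founding member and known from maturing granulocytes, had 803 reads in vector, 956 in HEB, 878 in E2A and 1267 in E2-2. E2-2 stood apart at 83.6 CPM, and the others lay between 49.7 and 57.8. MXD1 was higher in E2-2 by a factor of 1.62 (1.48 to 1.78) over vector and 1.68 (1.54 to 1.84) over E2A, both past 1.5-fold. In E2A it was 1.04-fold (0.940 to 1.14) lower than in vector and in HEB 1.122-fold (1.02 to 1.23) higher, neither called. SNRNP27 overlaps MXD1 in the table and had 228 to 325 reads.

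MXI1 (chromosome 10, 110207605 to 110287365), another SIN3-dependent partner of MAX, had 495, 471, 502 and 383 reads in vector, HEB, E2A and E2-2. The level of 25.3 CPM in E2-2 was the lowest and 31.7 in vector the highest, 1.26-fold (1.10 to 1.44) apart and not called. HEB and E2A, at 28.5 and 28.4 CPM, were level with each other. MNT (chromosome 17, 2384060 to 2401118), the broadly expressed repressor of the network, had 248, 213, 204 and 225 reads. MNT was lower than in vector by a factor of 1.38 (1.14 to 1.67) with E2A, 1.24 (1.02 to 1.49) with HEB and 1.07 (0.891 to 1.29) with E2-2, with no call. MLX (chromosome 17, 42567068 to 42573239) had 664, 831, 794 and 717 reads, and its largest gap was HEB over vector at 1.18-fold (1.06 to 1.31). MLX overlaps PSMC3IP, which had 281 to 337 reads.

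**Figure D2:**
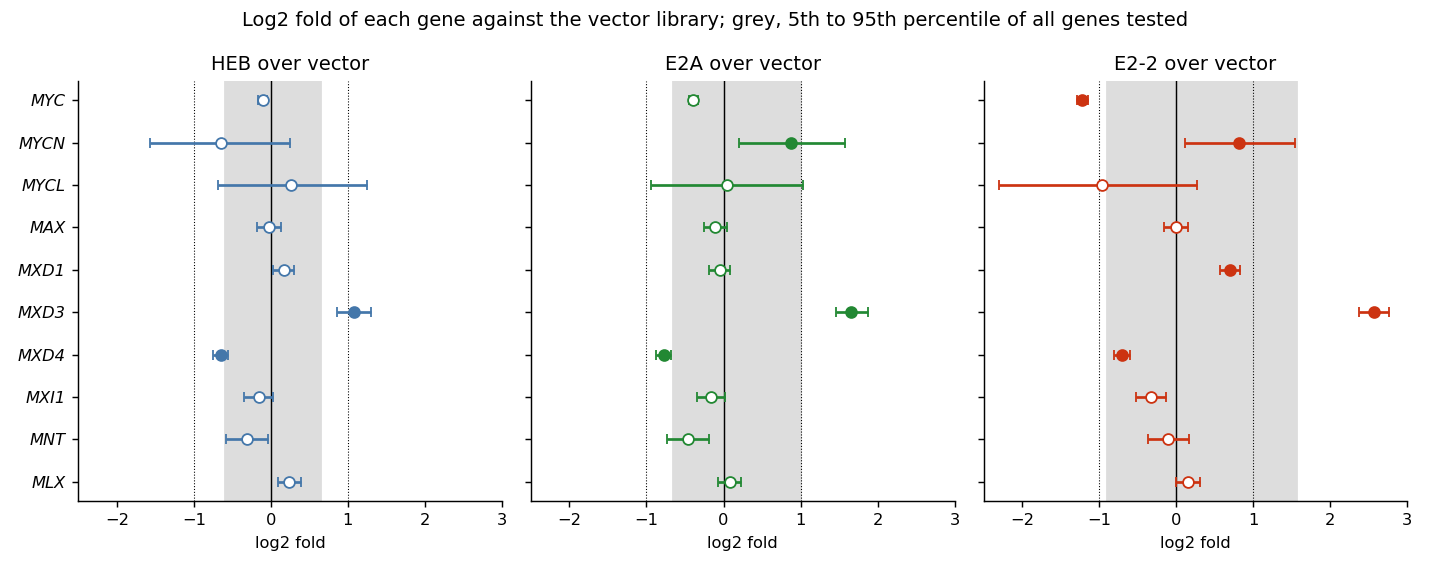
Log2 fold of each gene over vector in the HEB, E2A and E2-2 libraries with its 95% counting interval. Filled points passed the 1.5-fold rule, dotted lines mark 2-fold, and the grey band spans the 5th to 95th percentile of all genes tested. MXD3 lies beyond the band in all 3 panels, at 1.07, 1.66 and 2.57, and MYC lies beyond it in E2-2 at -1.22.

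The makeup of the MXD group's reads therefore differed between libraries. The proportions that follow are of reads, so a longer transcript weighs more within a library, but the same genes are compared between libraries. MXD4 gave 57.2% (55.5 to 58.8, exact binomial interval) of the reads of MXD1, MXD3, MXD4 and MXI1 in vector, 41.4% (39.7 to 43.1) in HEB, 37.7% (36.1 to 39.3) in E2A and 28.6% (27.3 to 30.01) in E2-2. MXD3 gave 6.78% (5.98 to 7.65) in vector, 16.2% (15.0 to 17.5) in HEB, 24.2% (22.8 to 25.6) in E2A and 32.8% (31.4 to 34.2) in E2-2. MXD1 gave 22.3% in vector, 28.4% in HEB, 24.3% in E2A and 29.6% (28.2 to 31.0) in E2-2. MXD4 thus led the reads in vector, HEB and E2A. MXD3 led in E2-2, where MXD1 and MXD4 came next with intervals that overlapped each other. The share of MXI1 was 13.8% to 14.0% in vector, HEB and E2A and 8.95% (8.11 to 9.85) in E2-2. All 4 genes together came to 230.8 CPM in vector, 203.2 in HEB, 204.7 in E2A and 282.2 in E2-2, so their summed level spread less than that of MXD3.

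**Figure D3:**
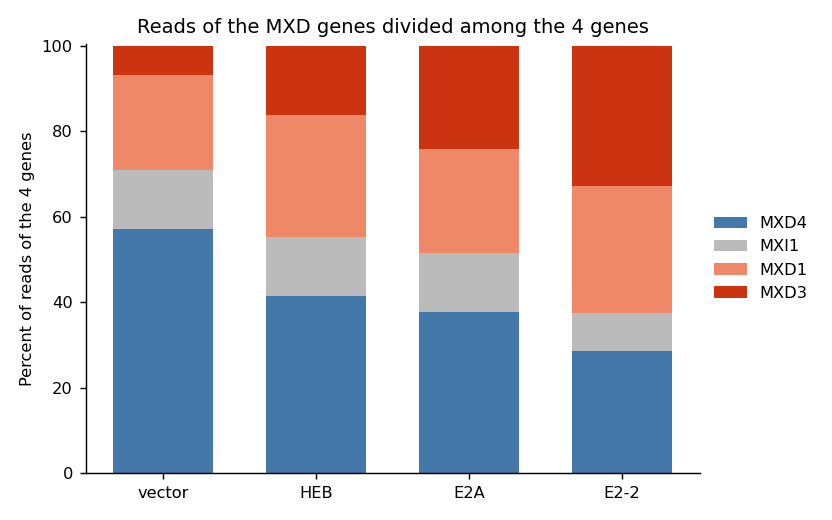
Reads of MXD1, MXD3, MXD4 and MXI1 as a percent of their sum in each library. The MXD4 portion shrinks from 57.2% in vector to 28.6% in E2-2, and the MXD3 portion widens from 6.78% to 32.8%.

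The bases upstream of the 3 MXD genes called against vector are shown, from RefSeq on GRCh38.p14, since MAX dimers and E proteins both bind forms of the E-box. Capitals mark CANNTG, the general E-box of the basic helix-loop-helix class, and each is written 5′ to 3′ along the gene's own strand. The MXD1 stretch is chr2:69914859-69915108 on the plus strand, the MXD3 stretch chr5:177312758-177313002 on the minus strand and the MXD4 stretch chr4:2262295-2262359 on the minus strand. For MXD3 and MXD4 bases that the table's gene model already covers were left off, 5 and 185 of 250. The table's MXD1 model begins 17421 bases farther upstream.
MXD1: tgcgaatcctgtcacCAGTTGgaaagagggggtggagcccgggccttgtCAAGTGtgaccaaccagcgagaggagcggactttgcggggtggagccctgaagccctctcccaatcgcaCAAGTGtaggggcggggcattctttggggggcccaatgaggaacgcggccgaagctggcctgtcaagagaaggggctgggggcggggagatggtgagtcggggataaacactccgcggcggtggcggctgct
MXD3: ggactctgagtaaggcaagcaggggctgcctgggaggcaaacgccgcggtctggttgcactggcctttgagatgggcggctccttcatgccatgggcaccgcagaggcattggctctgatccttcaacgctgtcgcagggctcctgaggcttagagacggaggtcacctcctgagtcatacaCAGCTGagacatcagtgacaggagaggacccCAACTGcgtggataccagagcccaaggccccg
MXD4: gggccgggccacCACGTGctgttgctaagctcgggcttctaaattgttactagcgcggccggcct
The MXD3 stretch holds CAGCTG 68 bases before the RefSeq start and CAACTG 37 bases before it. The MXD4 stretch holds CACGTG, the site preferred by MAX dimers, 238 bases before the start, and a CATCTG at 168 bases lies in the part left off. The MXD1 stretch holds CAGTTG at 235 bases and CAAGTG at 201 and 132 bases, and neither CAGCTG nor CACGTG.

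The same search was made on both strands in the 250 bases upstream of 12 RefSeq starts. These cover 9 of the 10 genes, with 2 starts for MAX and 3 for MXI1. MYC had no window in the sequences used, so its upstream bases were not searched. CACGTG was found in 3 of the 12 windows, those of MXD4, MNT (193 bases before the start) and MLX (50 bases), and in 6.34% of 35116 windows of all genes. CAGCTG was found in 1 window, that of MXD3, and in 14.0% of all windows. CAGGTG, or its reverse complement CACCTG, was found in 2, those of MYCL and of 1 MXI1 start, and in 17.5% of all. Any CANNTG, which includes the other 3 motifs, was present in 8 of 12 windows and in 61.8% of all. Both MAX windows had none, but both lie inside the table's MAX gene, which begins 412 and 1011 bases upstream of these starts. Like that of MXD1, the MYCL window (339 bases) and 2 MXI1 windows (2626 and 18391 bases) also lie inside their genes. This search kept bases that a gene model covers. A match describes the letters alone.

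Setting each gene against MYC within the same library removes library scaling and gene length from the comparison. For every 100 MYC reads there were 4.75 MXD3 reads in vector, 10.8 in HEB, 19.8 in E2A and 65.3 in E2-2. The MXD3 to MYC ratio thus exceeded that of vector by a factor of 2.27 (1.94 to 2.66) with HEB, 4.16 (3.59 to 4.84) with E2A and 13.8 (11.9 to 16.0) with E2-2. The ratio of MXD1 to MYC exceeded it by a factor of 3.77 (3.40 to 4.18) with E2-2, 1.27 (1.14 to 1.41) with E2A and 1.21 (1.09 to 1.34) with HEB.

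MXD4 did not follow the same order. There were 40.04 MXD4 reads per 100 MYC reads in vector, 27.5 in HEB, 30.8 in E2A and 57.0 in E2-2. Its ratio to MYC was below that of vector by a factor of 1.46 (1.35 to 1.58) with HEB and 1.30 (1.201 to 1.41) with E2A, and above it by 1.42 (1.30 to 1.55) with E2-2. MXD4 itself was lower in all 3, so in E2-2 the higher ratio goes with the larger drop of MYC. Per MYC read, MAX was 2.32-fold (2.06 to 2.61), MLX 2.58-fold (2.29 to 2.91), MNT 2.17-fold (1.79 to 2.63) and MXI1 1.85-fold (1.60 to 2.14) higher in E2-2. Their own folds over vector there were 0.997, 1.11, 0.933 and 0.796, so these higher ratios also go with the drop of MYC. In HEB the interval of the ratio to MYC held 1 for MAX (0.948 to 1.19), MXI1 (0.845 to 1.11) and MNT (0.720 to 1.06).

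**Figure D4:**
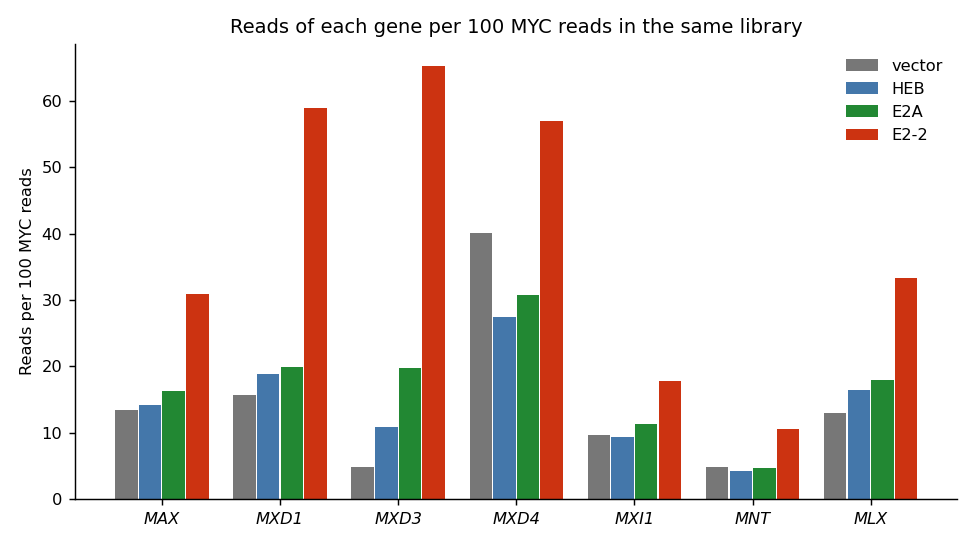
Reads of each gene per 100 MYC reads in the same library, bars from 0, with 4 bars per gene for vector, HEB, E2A and E2-2. Bar heights compare libraries within a gene. E2-2 is highest for all 7 genes drawn, where MYC, the shared divisor, was lowest, and MXD3 goes from 4.75 in vector to 65.3.

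The E protein libraries were then compared directly. No member was called at 2-fold between E2-2 and E2A, where 5.25% of 14066 genes were called (3.63% higher, 1.61% lower). MYCL was 2.003-fold lower in E2-2, on 9 and 21 reads, with an interval (0.879 to 4.97) that holds 1. At 1.5-fold MXD1 and MXD3 were higher and MYC was lower in E2-2, beside 11.1% of all genes (6.91% higher, 4.15% lower). Between E2-2 and HEB 4 of 10 members were called at 2-fold, beside 7.66% of 13891 genes (6.09% higher, 1.57% lower). At 1.5-fold the same 4 were called, beside 16.8% (10.7% higher, 6.03% lower). MYC was 2.16-fold (2.05 to 2.27) lower in E2-2 and MXD3 2.81-fold (2.54 to 3.11) higher. The other two were MYCN, 2.76-fold (1.59 to 4.97) higher, and MYCL, 2.34-fold (1.04 to 5.75) lower. These rest on 67 and 32 reads, and neither was called where at least 100 reads were asked for. Between E2A and HEB MYCN was the single call at 2-fold, 2.86-fold (1.68 to 5.08) higher in E2A, beside 3.08% of 13944 genes (2.38% higher, 0.696% lower). MXD3 was added at 1.5-fold, where 7.72% of all genes were called (5.21% higher, 2.51% lower).

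Genes known to be raised by MYC were read from a list of 28 that includes nucleolar, nucleotide synthesis and mitochondrial genes. In E2-2 against vector 25 of the 28 had a fold below 1, where 53.1% of all genes did, and the median log2 fold was -0.36 beside -0.03 for all genes. Single folds were small: 1 was called lower at 2-fold and 4 at 1.5-fold, and none higher. Of all genes 3.55% were called lower at 2-fold and 9.43% at 1.5-fold, and 8.45% and 13.5% were called higher. The 2-fold call was NME1, a nucleoside diphosphate kinase gene, with 76 reads against 197, 2.52-fold (1.93 to 3.33) lower. The read-through gene NME1-NME2 overlaps it, and reads shared by both may be lost from the count. The other 1.5-fold calls, named after their values were seen, were TERT (1.59-fold, 1.29 to 1.97), the pyrimidine synthesis gene CAD (1.53-fold, 1.45 to 1.61) and AHCY (1.503-fold, 1.41 to 1.60), all lower.

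Among the most abundant of these targets the nucleolar chaperone gene NPM1 had 27014 reads in vector and 19843 in E2-2, 1.32-fold (1.30 to 1.35) lower. PTMA was 1.09-fold (1.07 to 1.11) lower and TFRC, the transferrin receptor gene, 1.09-fold (1.06 to 1.117) higher. In E2A 17 of the 28 targets had a fold below 1, where 51.2% of all genes did, with a median of -0.07 beside -0.01 for all genes. None was called by either rule, beside 6.47% of all genes at 2-fold and 13.4% at 1.5-fold. In HEB 7 of 28 had a fold below 1, where 47.5% of all genes did, with a median of 0.05 beside 0.01. POLR3G, named after its value was seen, was 1.58-fold (1.38 to 1.82) higher. It was the only call in HEB, at 1.5-fold, where 8.53% of all genes were called. In E2-2 against HEB 27 of 28 had a fold below 1 (median -0.44), where 52.8% of all genes did (median -0.03).

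**Figure D5:**
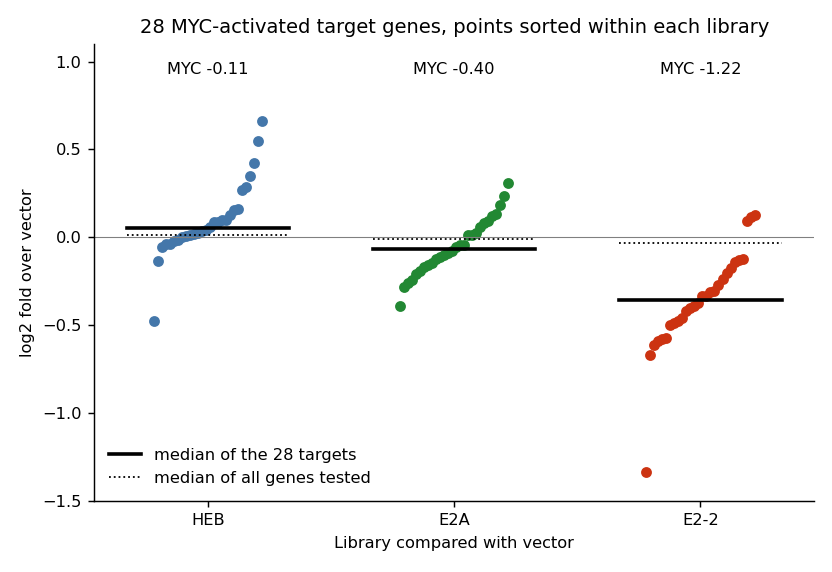
Log2 fold over vector of 28 MYC-activated target genes in the HEB, E2A and E2-2 libraries, sorted within each library, with the MYC value written above. Solid lines are the medians of the targets (0.05, -0.07 and -0.36) and dotted lines those of all genes tested.

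Genes that MYC represses with ZBTB17 (MIZ1) were mixed. Of 9 measured members 1 was 2-fold higher and 1 was 2-fold lower in E2-2 against vector, where 8.45% and 3.55% of all genes were. Their median log2 fold was -0.10 beside -0.03 for all genes. CDKN1A, the p21 gene, had 363 reads in vector and 1176 in E2-2, 3.33-fold (2.96 to 3.76) higher. With HEB it exceeded vector by a factor of 1.55 (1.36 to 1.77) and with E2A by 1.53 (1.34 to 1.75). CLU was lower, with 44 reads in vector, 21 in E2A and 11 in E2-2, and CDKN1C was 2.21-fold (1.57 to 3.14) lower in HEB. At 2-fold 1 of the 9 was lower in E2A and 1 in HEB, beside 1.58% and 1.23% of all genes. None was 2-fold higher in E2A or HEB, beside 4.89% and 2.55% of all genes. The abundant members ITGB1 and CDKN1B were 1.21-fold (1.18 to 1.25) and 1.26-fold (1.18 to 1.35) lower in E2-2, and the stress gene GADD45A was 1.41-fold (1.31 to 1.51) higher.

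Other proteins of the network and the corepressor genes were read next. MGA, a large protein that also pairs with MAX, had 2314 reads in vector, 2462 in HEB, 2583 in E2A and 1913 in E2-2, where it was 1.18-fold (1.11 to 1.25) lower. MLXIP (MondoA) was above vector by a factor of 1.32 (1.26 to 1.38) with E2-2, 1.15 (1.10 to 1.203) with E2A and 1.24 (1.18 to 1.30) with HEB. MLXIPL (ChREBP) had 0 to 3 reads, at or under the floor of 3. The MLX and MondoA targets TXNIP and ARRDC4 were not called, with TXNIP at 1.10-fold (1.051 to 1.15) higher in E2-2. Of 10 SIN3 corepressor genes none was called at 2-fold in any comparison with vector. The share of all genes called was 12.0% in E2-2, 6.47% in E2A and 3.78% in HEB. RBBP4, RBBP7 and HDAC1 differed from vector by at most 1.10-fold in all 3 libraries, and SAP30, named after its value was seen, was 1.56-fold (1.37 to 1.77) higher in E2-2.

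Cofactors of MYC had no 2-fold call among 15 in the 3 comparisons with vector. Of all genes 12.0% were called in E2-2, 6.47% in E2A and 3.78% in HEB. In E2-2 10 of the 15 cofactors had a fold below 1, as did 53.1% of all genes. The cofactors had a median log2 fold of -0.18 beside -0.03 for all genes. TRRAP, the scaffold of the histone acetyltransferase complexes that MYC recruits, had 4613 reads in vector, 6303 in HEB, 7095 in E2A and 7867 in E2-2, where it was 1.75-fold (1.69 to 1.82) higher. KAT2A, an acetyltransferase of such a complex and named after its value was seen, went the other way, with 1137, 1146, 863 and 597 reads, 1.85-fold (1.68 to 2.05) lower in E2-2. EP400 and BPTF were 1.27-fold (1.23 to 1.31) and 1.13-fold (1.08 to 1.17) lower there. Of 10 genes for MYC protein turnover 1 was called at 2-fold in E2-2 and none in E2A or HEB, where 12.0%, 6.47% and 3.78% of all genes were called. In E2-2 8 of the 10 had a fold above 1 and 2 below, where 53.1% of all genes were below 1. The turnover genes had a median log2 fold of 0.22 beside -0.03 for all genes. The called gene was FBXW7, the ubiquitin ligase subunit that marks MYC for destruction, with 688 reads in vector, 860 in HEB, 983 in E2A and 1362 in E2-2, 2.04-fold (1.86 to 2.24) higher in E2-2. The most abundant of the 10 included both genes below vector, HUWE1, another ubiquitin ligase gene, 1.29-fold (1.26 to 1.33) lower, and SET, 1.11-fold (1.08 to 1.14) lower. The deubiquitinase gene USP7 was 1.07-fold (1.02 to 1.11) higher.

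Neighbours of MYC on chromosome 8 were mixed. Of 10 listed genes 4 had enough reads. In E2-2 against vector 1 of the 4 was 2-fold higher, beside 8.45% of all genes. With the 1.5-fold rule 1 was higher and 1 lower, beside 13.5% and 9.43% of all genes. TRIB1, a pseudokinase gene, had 565 reads in vector, 828 in HEB, 901 in E2A and 1263 in E2-2, 2.30-fold (2.08 to 2.54) higher in E2-2. FAM84B was 1.56-fold (1.24 to 1.96) lower in E2-2 and FAM49B 1.01-fold (0.966 to 1.06) higher. PVT1, the non-coding gene next to MYC and named after its values were seen, had 119, 148, 102 and 86 reads and was 1.35-fold (1.01 to 1.80) lower in E2-2, not called.

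Genes were last ranked by how close their 3 log2 folds against vector came to those of MYC, over 4 libraries and among 8615 protein-coding genes with at least 100 reads in each. The nearest by Euclidean distance were ITPKA (0.12), TMTC2 (0.16), SAMD10 (0.18), PTPRG (0.19) and MACROD1 (0.20). ITPKA had 857 reads in vector, 907 in HEB, 707 in E2A and 364 in E2-2. MXD3 was taken beside MYC as the member with the widest range among those with at least 30 reads in every library. For MXD3 the nearest were CBFA2T3 (0.10), SLC12A2 (0.24), RPS6KA1 (0.32), FOXC1 (0.32) and ZCCHC24 (0.36). CBFA2T3, a corepressor gene of the same family as RUNX1T1, had 131, 298, 452 and 715 reads in vector, HEB, E2A and E2-2. Within a distance of 0.25 lay 13 genes for MYC and 2 for MXD3. All of these distances share the vector library, and 4 libraries hold few different patterns.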

How the data were processed

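RNA-seq values were used from 4 Kasumi-1 libraries, 1 per group, with library groups taken from the labels. The authors deposited a whole-number read count and an FPKM value per gene and library, per the file headers. Builds hg38 and hg19 and, with no role stated, the tools MACS2 2.1.1.20160309, HTSeq 0.9.1, TopHat2 2.0.9 and Bowtie2 2.2.9 appear in the submitters' processing notes. Overlapping genes are uncertain, with annotation and use of strand not given in the sources used here. The HA ChIP-seq samples were not analysed here.

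Library scaling used TMM factors from edgeR 4.0.16 in R 4.3.3 across all 4 libraries. Folds have 95% Clopper-Pearson intervals from the conditional binomial distribution, and ratios to MYC the exact conditional interval of the odds ratio (scipy 1.17.1). No test across samples is possible with single libraries. The fold intervals and calls were tested on simulated data, and the ratio intervals were not. The simulated counts held counting error alone, with library scaling taken as known, so differences between cultures were outside that test. In a fold, 3 reads replaced a count of 0, and none was formed where both counts were 3 or fewer. The alternatives were DESeq2 1.42.0 size factors, total counts, upper quartile scaling, a minimum of 100 reads or none, and FPKM ratios. The members and lists were chosen with earlier results of these data known. All 10 members are named. From each other pathway list, up to 4 members called at 2-fold against vector and the 3 with the highest mean CPM are named, and genes outside this rule are marked. Marker and control lists are given mainly as counts and sums. List genes were matched by symbol, or by Ensembl identifier where the symbol was not found. Promoter sequences are from RefSeq tables. 1 listed marker is not reported here.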

Additional observations from a re-analysis of the deposited data

How the results depend on the processing

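Counts of members called were recomputed under 6 alternatives in each comparison and for both fold rules, 72 values in all, and 67 stayed within 1.5 times the reported count. With at least 100 reads, E2-2 against HEB had 2 members called instead of 4, both at 2-fold and at 1.5-fold, because MYCN and MYCL fall short of that minimum. Under it E2A against HEB had 0 called at 2-fold and 1 at 1.5-fold. With upper quartile scaling E2A against HEB had 1 at 1.5-fold, since the MXD3 fold, 1.502 as reported, then lay below the rule. All 240 member folds under other scalings or from FPKM lay inside the reported counting interval, the largest moved 1.04-fold, and no called fold reversed. Uncalled folds near 1 crossed it for MAX in E2-2 against vector (0.9971, then 1.011 with DESeq2 factors and 1.029 with total counts or FPKM) and against HEB (1.012, then 0.9867 with upper quartile), and for MXI1 in E2A against HEB (0.9982, then 1.001 and 1.013). Scaling shifted all log2 folds by at most 0.061. The 27 read ratios to MYC were the same from FPKM, which follows from its construction. No paired analysis was possible because each group has 1 library. Depth limits MYCN and MYCL, and differences between cultures were not measured.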
